A study of Mus musculus with 4 samples.

Results

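The alpha beta T cell receptor complex was followed through 10 genes of the 55335 in the deposited tables. Trac, Trbc1 and Trbc2 encode the constant regions of the receptor's alpha and beta chains, Cd3e, Cd3d, Cd3g and Cd247 the signalling chains, and Cd4, Cd8a and Cd8b1 the coreceptors. They were taken by gene symbol, and 8 of the 10 held enough fragments to be tested, the exceptions being Cd8a and Cd8b1. The series holds RNA-seq libraries of cells labelled CD4+ T cells from mouse dorsal skin, 2 from Mettl3fl/fl mice (control 1 and control 2) and 2 from Mettl3fl/fl;Cd4-Cre mice (Cre 1 and Cre 2). Every library carries floxed Mettl3, the gene of the enzyme that writes N6-methyladenosine on RNA, and every mouse had skin inflamed with imiquimod, an agonist of Toll-like receptor 7 (cream of 5%, 5 daily doses of 15 or 62.5 mg, age 8 to 12 weeks). No untreated skin and no Cre line without the floxed allele is among the libraries, so Cre itself and the loss of Mettl3 cannot be told apart. Cd4-Cre acts from the thymic stage at which T cells carry both coreceptors, and so in CD4 and CD8 alpha beta T cells alike. The number of mice behind a library, and the gate that followed the staining for CD45 and CD4, are not given in the sources used here.

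The alpha and beta chains bind peptide presented on major histocompatibility complex molecules and have almost no cytoplasmic tail of their own. They reach the surface only in a complex with the CD3 chains, a CD3 epsilon-delta pair, a CD3 epsilon-gamma pair and a dimer of the zeta chain encoded by Cd247, whose tails carry tyrosine motifs that the kinase Lck phosphorylates and Zap70 then binds. The coreceptor CD4 binds class II molecules and brings Lck to the complex, and CD8 does so for class I. In imiquimod-treated mouse skin, alpha beta T cells stand beside gamma delta T cells, which use the same CD3 chains with other receptor chains.

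The labelled cell type was set against its markers first. All 10 genes together made up 0.0867% of what was counted in control 1, with an exact 95% interval of 0.0840 to 0.0895, then 0.0271% in control 2 (0.0254 to 0.0288), 0.0237% in Cre 1 (0.0223 to 0.0252) and 0.0110% in Cre 2 (0.0100 to 0.0120). Macrophage and monocyte markers, 14 genes, held between 1.04% and 2.75% in the same libraries, led by the myeloid lysozyme Lyz2. Control 2 held no fragment of Cd4 at all. Counted fragments ran from 3614418 to 4537006 a library, and levels are given as CPM, fragments relative to a library size scaled by the trimmed mean of M values, on which 3 fragments, the limit that a count of 0 allows, stand for 0.655 to 0.792. Control 2 stands apart: 32.7% of the 12434 genes tested had no fragment there, against 1.78% to 6.92% in the others, and results are given with and without it. In these bulk libraries fewer T cells and less receptor RNA in each T cell cannot be told apart.

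The signalling motifs are shown because they are what the complex contributes to the cell, and because no deposited count reads them alone. Each motif has the form tyrosine, any 2 residues, leucine or isoleucine, then 6 to 8 residues and the same form again. Cd3e, Cd3d and Cd3g hold 1 motif each and Cd247 holds 3. They are written below as the coding bases of the transcript in GENCODE M21 (GRCm38), 5′ to 3′, with both tyrosine codons in capitals.
Cd3e, residues 170 to 184 of 189, chr9:45000435-45000440 and chr9:44999549-44999587, minus strand: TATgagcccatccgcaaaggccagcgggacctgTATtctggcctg
Cd3d, residues 149 to 163 of 173, chr9:44986095-44986100 and chr9:44986273-44986311, plus strand: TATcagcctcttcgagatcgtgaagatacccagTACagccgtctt
Cd3g, residues 160 to 174 of 182, chr9:44971263-44971268 and chr9:44970735-44970773, minus strand: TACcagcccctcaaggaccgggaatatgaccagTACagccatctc
Cd247 motif 1, residues 72 to 86 of 164, chr1:165856451-165856456 and chr1:165857416-165857454, plus strand: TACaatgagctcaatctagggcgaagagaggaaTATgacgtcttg
Cd247 motif 2, residues 111 to 126, chr1:165858473-165858478 and chr1:165859219-165859260, plus strand: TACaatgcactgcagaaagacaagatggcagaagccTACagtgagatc
Cd247 motif 3, residues 142 to 156, chr1:165859819-165859824 and chr1:165861004-165861042, plus strand: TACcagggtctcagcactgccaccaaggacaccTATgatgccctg
Each of the 6 motifs is split between 2 exons. Of their 273 bases, 0 lie in a stretch that belongs to a single exon entry of the tables. The fragments of these 4 genes therefore cannot be assigned to a motif alone.

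The pair of beta chain constant genes is shown because they are nearly the same sequence. Their first exons, 375 bases each (Trbc1 chr6:41538218-41538592, Trbc2 chr6:41546730-41547104, plus strand), differ by C260A, counted from the first base of the exon with the base of Trbc1 given first. The 60 bases around it, positions 230 to 289, follow with the differing base in capitals.
Trbc1: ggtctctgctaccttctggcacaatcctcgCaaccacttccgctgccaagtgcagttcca
Trbc2: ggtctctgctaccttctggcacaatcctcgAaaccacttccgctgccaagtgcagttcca
Fragments that map to both copies were not counted. In addition, the first exon of Trbc1 has no stretch that belongs to a single entry, so the fragments counted in this exon are all listed under Trbc2, and the genes are compared by their last exons.

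What could be counted set which stretch of each gene was read. The tables count by exon entry, and an exon listed by several transcripts with the same coordinates held 0 fragments in every library. Of 68 entries of Cd247, 56 share their coordinates, 4 hold bases of their own and 2 held fragments. Trac was read in the 521 bases of its last entry alone, and Trbc1 in the 237 bases of its last entry alone, while Trbc2 was read in all 4 of its entries. Cd4 had 99.2% of its fragments in 1 entry of 1584 bases, of which 31 are coding. Cd3e was read in an entry with 689 bases of its own, all beyond the stop codon, plus a retained intron with 15.3% of its fragments. Cd3d was read mainly in 3 entries with coding bases. Cd8a had only 630 bases of its own, 505 of them in a retained intron, so its 0 fragments in every library say little about the gene. Exons of Cd8b1 could all be counted.

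The alpha chain gene Trac (ENSMUSG00000076928, GRCm38 chromosome 14, 54220521 to 54224206, plus strand) was highest in control 1 and lowest in Cre 2. It held 906 fragments in control 1, 277 in control 2, 140 in Cre 1 and 108 in Cre 2, or 197.8, 73.1, 34.9 and 25.5 CPM. Both Cre libraries lay below both controls, and the controls differed from each other by 2.705-fold. Cre over control came to -2.16 on the log2 scale, standard error 0.89 (quasi-likelihood test of edgeR, unadjusted p = 0.0563, adjusted p = 0.9997).

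Trbc2 (ENSMUSG00000076498, chromosome 6, 41546730 to 41548352, plus strand), the more abundant beta constant gene in counts, followed the same order. Its 871, 260, 146 and 79 fragments in control 1, control 2, Cre 1 and Cre 2 gave 190.1, 68.6, 36.4 and 18.7 CPM. The groups did not overlap, and Cre over control was -2.23 in log2, standard error 0.95 (edgeR, unadjusted p = 0.0626, adjusted p = 0.9997). Its first exon held 528, 110, 63 and 36 of these fragments and its last 233, 114, 50 and 33, so the order was the same at both ends of the gene. Trbc1 (ENSMUSG00000076490, chromosome 6, 41538218 to 41539881, plus strand) had 186, 61, 35 and 66 fragments, or 40.6, 16.1, 8.74 and 15.6 CPM. Cre 2 and control 2 were nearly level for this gene, and its log2 fold change, -1.22, was smaller than its standard error of 1.30 (edgeR, adjusted p = 0.9997).

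Among the CD3 chains, Cd3d and Cd3g were counted in every library, and both Cre libraries lay below both controls. Cd3d (ENSMUSG00000032094, chromosome 9, 44981786 to 44987339, plus strand), which pairs with CD3 epsilon, was counted 478 times in control 1, 299 in control 2 and 101 in each Cre library. Its levels of 104.3 and 78.9 CPM in the controls and 25.2 and 23.9 CPM with Cre made it the gene with the smallest spread within each genotype among those with over 3 fragments in each library, 1.32-fold between the controls and 1.06-fold between the Cre libraries. Its log2 fold change of -1.90 had a standard error of 0.86 (edgeR, unadjusted p = 0.0757, adjusted p = 0.9997). Its coding entry of 219 bases held 54.4% of the gene's fragments in control 1, 41.5% in control 2, 52.5% in Cre 1 and 51.5% in Cre 2. Its last entry, whose own bases lie beyond the stop codon, held 18 and 36 fragments in the controls and 0 in both Cre libraries. Its share was 3.77% in control 1 (exact interval 2.25 to 5.89) and 12.0% in control 2 (8.58 to 16.3). In each Cre library, 0 of 101 allows a share of up to 3.59%, which overlaps the interval of control 1.

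Cd3g (ENSMUSG00000002033, chromosome 9, 44969572 to 44980431, minus strand), the partner of CD3 epsilon in the other pair, had 207, 80, 58 and 71 fragments in control 1, control 2, Cre 1 and Cre 2. These were 45.2, 21.1, 14.5 and 16.8 CPM, or 33.15 ± 17.02 in controls and 15.6 ± 1.63 with Cre (SD, n = 2 each), and the gap between control 2 and the higher Cre library was smaller than the gap between the controls. Its log2 fold change of -1.08 had a standard error of 1.18 (edgeR, adjusted p = 0.9997). A retained intron held 14.2% of its fragments, namely 26 in control 1, 5 in control 2, 6 in Cre 1 and 22 in Cre 2. Its part was thus largest in Cre 2, and these fragments also enter the ratio of Cd3g to Cd3d.

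Cd3e and Cd247 departed from this order, and control 2 held almost none of either. Cd3e (ENSMUSG00000032093, chromosome 9, 44998740 to 45009627, minus strand), the chain present in both CD3 pairs, had 282 fragments in control 1, 1 in control 2, 80 in Cre 1 and 42 in Cre 2. Part of its last exon overlaps a gene annotated on the opposite strand and could not be counted. Cd247 (ENSMUSG00000005763, chromosome 1, 165788681 to 165877277, plus strand), the zeta chain with most of the motifs, had 197, 0, 42 and 0 fragments in the same order, so 1 library of each genotype had none. Their log2 fold changes of -1.05 (standard error 2.12) and -2.03 (standard error 3.13) lay within their error (edgeR, adjusted p = 0.9997 each). Both turned positive without control 1, to 5.73 and 7.43, and that of Cd3e also by limma-voom (1.29) and with Y-linked transcripts as a covariate (1.42).

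The coreceptor Cd4 (ENSMUSG00000023274, chromosome 6, 124864692 to 124888221, minus strand), by whose protein the cells were stained, had the widest spread of the complex. It held 777 fragments in control 1, 0 in control 2, 420 in Cre 1 and 9 in Cre 2, or 169.6, 0, 104.8 and 2.13 CPM. The high and the low library of each genotype thus overlapped those of the other, and the 2 Cre libraries differed by 49.3-fold. Its log2 fold change of -0.67 had a standard error of 2.71 (edgeR, adjusted p = 0.9997). Its sign turned without control 1 (10.77), without Cre 2 (0.32), by limma-voom (1.33) and with the Y-linked covariate (1.10). Of the CD8 genes, Cd8b1 (ENSMUSG00000053044, chromosome 6, 71322788 to 71337494, plus strand) was low, with 31 fragments in control 1, 0 in control 2, 1 in Cre 1 and 2 in Cre 2. Cd8a (ENSMUSG00000053977, chromosome 6, 71373427 to 71379173, plus strand) had 0 in all 4, which says little, since few of its bases could be counted.

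**Figure D1:**
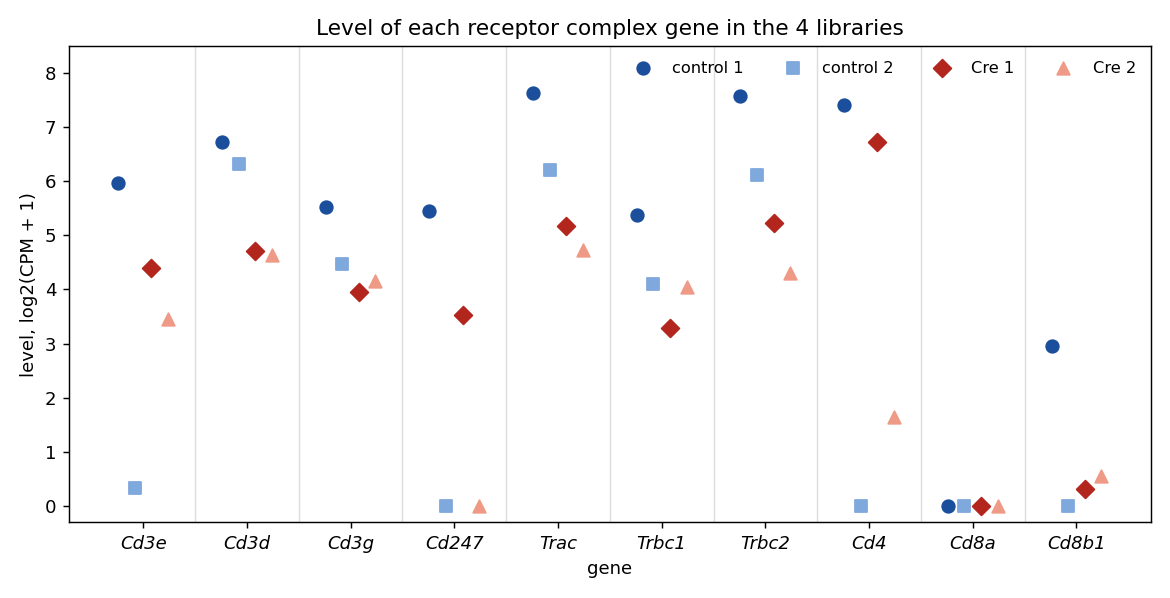
Level of each of the 10 genes, as log2(CPM + 1) on the vertical axis, with 1 point per library (controls in blue, Cre in red). Trac, Trbc2, Cd3d and Cd3g run from control 1 down to the Cre libraries, while control 2 sits at or near 0 for Cd3e, Cd247 and Cd4.

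Per length, the order of the chains also differed between libraries. In CPM per kilobase of bases that belong to 1 entry, retained introns left out, control 1 had 378.9 for Trac, 274.8 for Trbc2, 163.1 for Trbc1, 124.2 for Cd3g, 102.5 for Cd4, 76.3 for Cd3e, 68.8 for Cd3d and 44.5 for Cd247. In control 1 the receptor chains thus stood above the CD3 chains on this scale. With Cre this did not hold: Cd3g (40.8) stood above Trbc1 (35.1) in Cre 1, and Cd3g (36.4) above Trbc2 (27.0) in Cre 2. In Cre 1, Trac (66.9) was followed by Cd4 (62.1) and Trbc2 (52.7), and in Cre 2, Trbc1 (62.7) was first and Cd4 (1.29) next to last among the 8 genes, above Cd247 (0). These levels rest on different stretches of each gene and are rough.

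No gene of the complex passed the threshold between Cre and control libraries. Of the 8 tested, 0 had an adjusted p under 0.05 and 0 an unadjusted p under 0.05 by edgeR, where 0% and 1.5% of all 12434 genes tested did. DESeq2, which called 0.282% of the genes it gave an adjusted p, called 0 of the complex, and limma-voom, which called 0% of all genes, called 0 with 2 at an unadjusted p under 0.05 (Trbc2 and Trac). All 8 log2 fold changes were negative, where 43.1% of all genes tested were, and their median was -1.56 against 0.20 over all genes.

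The groups did not overlap for 5 of the 8 genes, Cd3d, Cd3g, Trac, Trbc1 and Trbc2, with both Cre libraries below both controls, where 11.2% of all genes tested lay so. The 5 genes belong to 1 complex and are not independent of each other. Without control 2 the count was 8 of 8, where 31.5% of all genes lay below the remaining control, and without control 1 it was 5, where 29.3% did. Leaving out a library can raise such a count but cannot lower it. Leaving out each library in turn, the log2 fold change of Cd3d stayed between -2.09 and -1.62 and that of Trac between -2.72 and -1.21. For Cd3g it lay between -1.54 and -0.37, for Trbc1 between -1.74 and -0.34 and for Trbc2 between -2.79 and -1.25, the smallest size of each without control 1. The log2 fold change of Cd4 ran from -5.31 to 10.77 and that of Cd247 from -9.54 to 7.43. With 2 libraries a genotype, the smallest two-sided p an exact permutation test of a single value can give is 0.333.

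**Figure D2:**
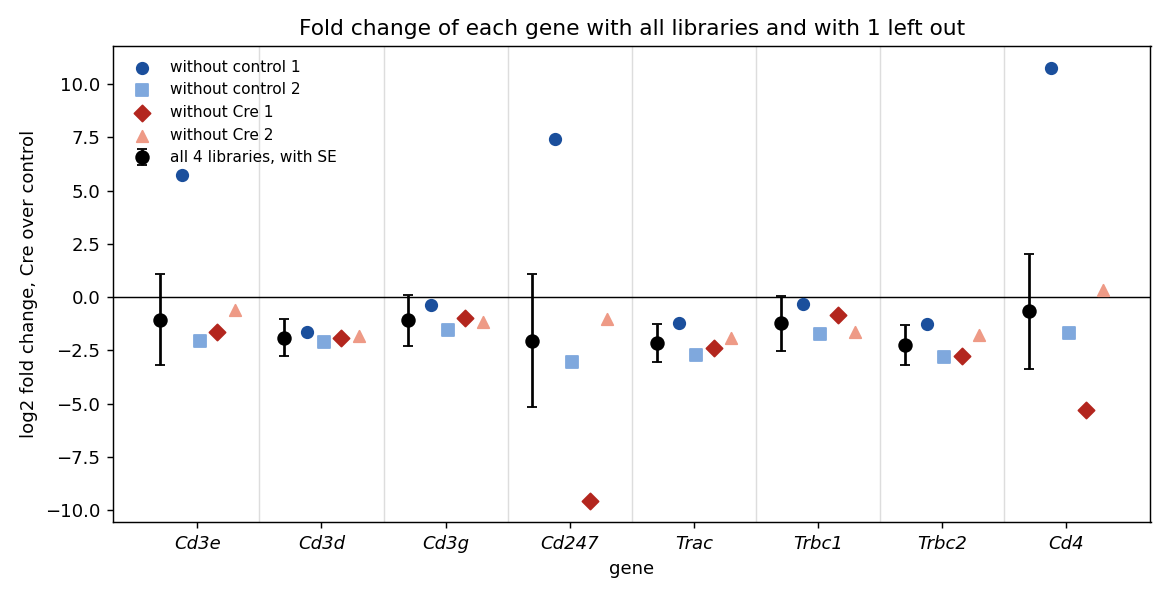
Log2 fold change of Cre over control (vertical axis) for the 8 genes tested, with all 4 libraries and their standard error in black, and without 1 library in colour. Cd3d stays between -2.09 and -1.62, while Cd3e, Cd247 and Cd4 change sign without control 1.

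The makeup of the complex differed from library to library. Cd4 supplied 19.7% of the 10 genes' fragments in control 1 (18.5 to 21.02 as the exact 95% interval), 0% in control 2 (upper limit 0.377), 41.1% in Cre 1 (38.0 to 44.1) and 1.88% in Cre 2 (0.864 to 3.54). Cd3d supplied 12.2%, 30.6%, 9.87% and 21.1% in the same order, higher where the share of Cd4 was low. Shares of 1 total are tied to each other, so a high share of Cd4 lowers the rest. In CPM, Cd3d was at 104.3, 78.9, 25.2 and 23.9 in that order, highest in control 1, as Cd4 was. Cd3e stayed between 7.17% and 8.79% in 3 libraries and was 0.102% in control 2 (0.00259 to 0.568). These intervals cover counting error only.

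**Figure D3:**
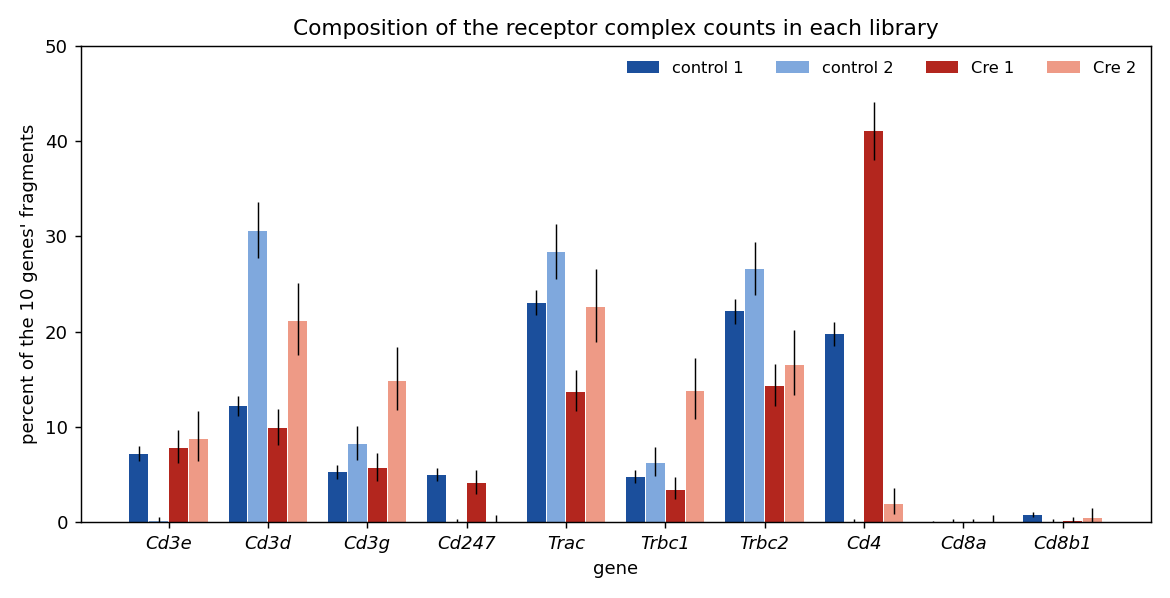
Share of the 10 genes' fragments taken by each gene (vertical axis, percent) in the 4 libraries, with exact 95% binomial intervals. Cd4 takes 41.1% in Cre 1 and 0% in control 2, while Trac takes between 13.7% and 28.3% in every library.

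Summed over the entries that could be counted, alpha and beta chain fragments kept close to a fixed ratio. Fragments of Trac to those of Trbc1 plus Trbc2 stood at 0.857 in control 1 (0.783 to 0.938 as the exact 95% interval), 0.863 in control 2 (0.732 to 1.02), 0.773 in Cre 1 (0.616 to 0.970) and 0.745 in Cre 2 (0.575 to 0.962). These 4 intervals overlap, across a 7.75-fold range in the level of Trac itself. The sum holds Trbc1 by its last entry alone and Trbc2 by all 4 of its entries. From the entry with most fragments alone, Trac to Trbc2 varied more, at 1.72 in control 1, 2.52 in control 2, 2.22 in Cre 1 and 3.00 in Cre 2. The use of the beta constant genes was less even. In their last exons, Trbc1 to Trbc2 was 186 to 233 in control 1, 61 to 114 in control 2, 35 to 50 in Cre 1 and 66 to 33 in Cre 2, or ratios of 0.798, 0.535, 0.700 and 2.00. The interval of Cre 2 (1.30 to 3.14) lies above those of the other 3, which reach 1.10 at most.

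Ratios among the CD3 chains and to the coreceptor were less even still. Cd3g to Cd3d was 0.433 (0.366 to 0.511) in control 1, 0.268 (0.206 to 0.343) in control 2, 0.574 (0.408 to 0.801) in Cre 1 and 0.703 (0.512 to 0.962) in Cre 2, so that both Cre libraries lay above both controls. Cd3e to Cd3d was 0.590, 0.792 and 0.416 in control 1, Cre 1 and Cre 2, and 0.00334 (8.44e-05 to 0.0188) in control 2. Cd247 to Cd3d was 0.412 in control 1 and 0.416 in Cre 1, nearly the same, while the 0 fragments of the other libraries allow at most 0.0124 in control 2 and 0.0372 in Cre 2. Cd4 to Cd3d was 1.63 (1.45 to 1.83) in control 1 and 4.16 (3.34 to 5.22) in Cre 1, against 0.0891 (0.0396 to 0.176) in Cre 2 and at most 0.0124 in control 2.

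**Figure D4:**
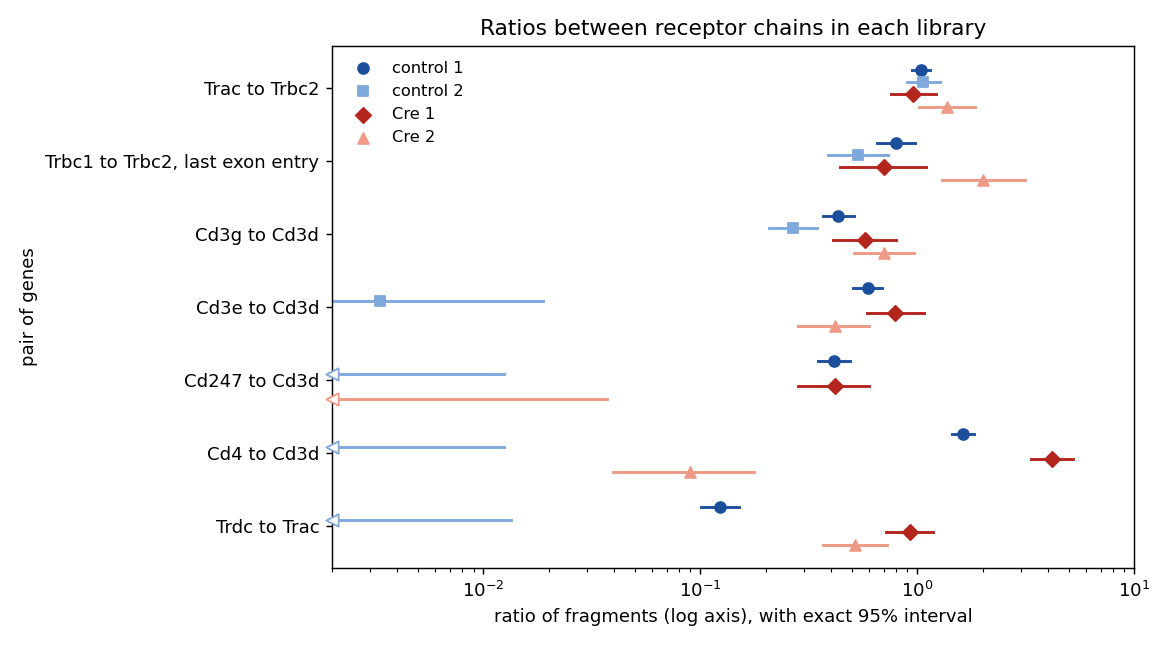
Ratio of fragments between pairs of genes (horizontal log axis) in each library, with exact 95% intervals. Open triangles at the left edge stand for libraries with 0 fragments of the first gene, and an interval that meets the edge goes on beyond it. Trac to Trbc2 runs from 0.959 in Cre 1 to 1.37 in Cre 2, while Cd4 to Cd3d runs from 0 to 4.16.

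Such gaps are not limited to the complex in control 2, but are rare in Cre 2. Of 1232 tested genes with at least the 777 fragments of Cd4 in control 1, 35 (2.84%) had 0 in control 2, and 3 (0.244%) had 9 or fewer in Cre 2. Of 2937 with at least the 282 of Cd3e, 269 (9.16%) had 1 or fewer in control 2. Of 3666 with at least the 197 of Cd247, 370 (10.1%) had 0 in control 2, 12 (0.327%) had 0 in Cre 2 and 3 (0.0818%) had 0 in both.

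The rearranging segments that join to these constant regions were spread over many genes in control 1 and few in control 2. Each T cell clone carries its own combination of variable and joining segments, so the number seen depends on how many clones and how many fragments were sampled. Of 128 alpha variable segments, 28 held fragments in control 1 (285 fragments), 3 in control 2 (84), 9 in Cre 1 (79) and 3 in Cre 2 (19). The leading pair was Trav9-2 (26) and Trav19 (24) in control 1, Trav7-4 (81) and Trav7d-4 (2) in control 2, Trav21-dv12 (42) and Trav19 (10) in Cre 1, and Trav13-1 (11) and Trav21-dv12 (6) in Cre 2. Control 2 and Cre 1 thus had similar totals, and 96.4% of the former came from 1 segment against 53.2% of the latter. By its name, that segment of Cre 1, Trav21-dv12, is also a delta variable segment. Which chain its fragments belong to was not tested. The 6 segments named as delta variable alone held 24, 0, 43 and 30 fragments in control 1, control 2, Cre 1 and Cre 2.

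Beta variable segments gave the same picture as the alpha variable segments. Of 35, 14 held fragments in control 1 (437), 1 in control 2 (104), 10 in Cre 1 (97) and 5 in Cre 2 (71). Trbv13-2 (116) and Trbv3 (84) led in control 1, Trbv1 (34) and Trbv2 (18) in Cre 1, and Trbv2 (24) and Trbv29 (18) in Cre 2, while all 104 of control 2 were of Trbv12-2. Of 60 alpha joining segments, 27, 3, 14 and 5 held fragments (139, 20, 27 and 32) in control 1, control 2, Cre 1 and Cre 2, and of 14 beta joining segments 8, 2, 9 and 1 did (51, 2, 24 and 1). Segments of one family are alike, fragments that fit several were not counted, and a count does not tell a rearranged gene from an unrearranged one.

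As ratios to Trac, itself lower with Cre, Trdc and Tcrg-C1 of the gamma delta receptor stood higher in the Cre libraries. Trdc, the delta constant region, had 112, 0, 129 and 56 fragments in control 1, control 2, Cre 1 and Cre 2 (24.5, 0, 32.2 and 13.2 CPM). Its own log2 fold change of 0.89 had a standard error of 2.32 (edgeR, adjusted p = 0.9997). Its ratio to Trac was 0.124 (0.101 to 0.151, exact 95% interval) in control 1, at most 0.0134 in control 2, 0.921 (0.720 to 1.18) in Cre 1 and 0.519 (0.369 to 0.723) in Cre 2, with both Cre libraries above both controls. This is a comparison of ratios with no test. In CPM, Trdc in control 1 lay between the Cre libraries, while Trac was at 197.8 in control 1 against 34.9 and 25.5 with Cre. The gamma constant gene Tcrg-C1, which RefSeq names Trgc1, had 68, 0, 65 and 74 fragments, a ratio to Trac of 0.0751 in control 1, at most 0.0134 in control 2, 0.464 in Cre 1 and 0.685 in Cre 2. The CD3 chains serve both receptors, and which of the cells supplied them was not tested.

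Of the 9 genes listed with the gamma delta lineage, Trdc and Tcrg-C1 included, 5 were tested, 2 with a negative and 3 with a positive log2 fold change, and 0 passed the threshold. Their median of 0.89, against 0.20 over all genes, turned to -0.11 without control 2 and to -0.52 without Cre 2. In these settings the median of all genes was 0.05 and 0.10. The transcription factor gene Zbtb16 was at 45.8, 12.4, 19.7 and 147.0 CPM in control 1, control 2, Cre 1 and Cre 2, the interleukin-23 receptor gene Il23r at 29.0, 44.9, 8.74 and 0 CPM, and the kinase gene Blk at 24.7, 0, 3.99 and 0 CPM. These 3 were high in different libraries. Named after their values were seen, the genes not tested were Tcrg-C2 (0, 0, 17 and 1 fragments), Tcrg-C4 (16, 0, 3 and 0), Tcrg-C3 and Sox13 (0 throughout).

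Receptor signalling genes had more negative than positive fold changes, with wide errors. Of 32 genes listed, 28 were tested and 0 passed the threshold. A log2 fold change was negative in 19 and positive in 9, with a median of -0.84 against 0.20 over all genes. The median of the list turned to 2.82 without control 1 and to 0.01 with the Y-linked covariate. The median of all genes moved in the same settings, to 1.72 and 0.48. Both Cre libraries lay below both controls for 5 of the 28 (11.2% of all genes), namely Thy1, Icos, Ctla4, Trat1 and Bcl11b. In control 2, 15 of the 32 had 0 fragments, against 0 in control 1, 1 in Cre 1 and 6 in Cre 2.

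Among the surface proteins on the list, Thy1 was at 168.1, 69.4, 22.5 and 41.8 CPM in control 1, control 2, Cre 1 and Cre 2 (log2 fold change -1.88, standard error 0.91). The costimulator Icos was at 126.8, 52.3, 42.7 and 20.8 CPM (-1.50, standard error 0.97), and the inhibitory receptor Ctla4 at 62.4, 16.4, 14.2 and 7.33 CPM (-1.87, standard error 1.32). All 3 had an adjusted p of 0.9997 by edgeR. The receptor-associated adaptor Trat1 was at 37.1, 32.5, 24.7 and 2.60 CPM. Both Cre libraries lay below both controls for these 4 genes, but the genotypes overlapped for other surface genes of the list. Named after their values were seen, these were Cd28 (33.0, 1.58, 18.0 and 4.73 CPM in the same order), Cd2 (16.6, 1.06, 5.99 and 2.84), Cd27 (36.9, 0, 10.7 and 1.66), Cd5 (16.6, 0, 8.24 and 0) and Cd6 (10.9, 3.695, 16.97 and 0).

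Lck, the kinase that acts on the motifs, had 47, 0, 14 and 0 fragments, and Zap70, which binds them, 71, 0, 9 and 15, and both are named for that role, after their values were seen. Lat, the adaptor that Zap70 phosphorylates, was at 57.4, 6.07, 18.97 and 11.35 CPM in control 1, control 2, Cre 1 and Cre 2. Lcp2, an adaptor that myeloid cells also use, was at 154.3, 0, 205.7 and 136.2 CPM, and the phospholipase gene Plcg1 at 83.4, 26.7, 9.98 and 112.5 CPM. Among the transcription factors, Ets1 was at 298.6, 9.77, 95.8 and 35.9 CPM, Tcf7 at 88.2, 19.5, 12.7 and 34.3 CPM, and Bcl11b, which holds T cells to their lineage, at 42.8, 121.2, 11.5 and 0.236 CPM (log2 fold change -3.80, standard error 1.87; edgeR, adjusted p = 0.9997). Bcl11b was thus highest in control 2, the library without Cd4, and skin keratinocytes also express it. The phosphatase gene Ptpn22 was at 31.9, 0, 57.4 and 2.36 CPM, high and low in the same libraries as Cd4. It was highest in Cre 1, however, and Cd4 in control 1.

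Against Ptprc, which encodes CD45 of all leukocytes and was the other antigen stained, the complex was far higher in control 1 than elsewhere. Ptprc had 126, 313, 535 and 197 fragments in control 1, control 2, Cre 1 and Cre 2 (27.5, 82.6, 133.5 and 46.6 CPM). The 4 CD3 chains together to Ptprc stood at 9.24 (exact 95% interval 7.68 to 11.2), 1.21 (1.04 to 1.41), 0.525 (0.453 to 0.608) and 1.09 (0.891 to 1.32), so that control 2 and Cre 2 overlapped in their intervals. Trac to Ptprc was 7.19, 0.885, 0.262 and 0.548, with both Cre libraries below both controls.

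The 10 genes nearest in pattern to the CD3 chains included Icos and Ctla4 of the signalling list. The chains summed to 254.1, 100.3, 70.1 and 50.6 CPM in control 1, control 2, Cre 1 and Cre 2. Likeness was the root mean square difference in centred log2(CPM + 1) over the 4 libraries, among 9752 other genes at a mean of at least 5 CPM. The nearest were Ccl22 (0.11), a chemokine of dendritic cells and macrophages, Lgalsl (0.11), Icos (0.19), P3h4 (0.19), Nectin1 (0.24), Nudt17 (0.24), Rabgap1l (0.24), Ctla4 (0.25), Bcl9 (0.26) and Zbtb33 (0.27). Ccl22 was at 145.6, 67.3, 49.2 and 32.9 CPM, in the same order of libraries as the chains. Trac ranked 12th (0.29), Trbc2 38th (0.38) and Trbc1 72nd (0.47), and Cd4 was far away at 2.86. With 4 libraries many genes share an order, and likeness over so few points is a description.

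Markers of other cells moved between these libraries as well. Summed macrophage and monocyte markers were at 19470 CPM in control 1, 9937 in control 2, 29620 in Cre 1 and 28180 in Cre 2, with both Cre libraries above both controls for 10 of 13 tested genes, where 19.5% of all genes tested lay so. Keratinocyte markers were at 1522, 23490, 2261 and 1063 CPM, led by Perp at 6580 CPM in control 2, where Cd4, Cd247 and Cd3e were at or near 0. Fibroblast markers, led by Mmp2, were at 12300, 2880, 5741 and 5906 CPM. Markers of dendritic and Langerhans cells, some of which carry CD4 themselves, were at 1692, 269.0, 1251 and 643.7 CPM, led by Ccr7. Their sum had the same order of libraries as Cd4, but differed far less between the Cre libraries, where Cd4 was at 104.8 CPM in Cre 1 and 2.13 in Cre 2. Natural killer and innate lymphoid markers, led by Gata3, were at 221.3, 276.1, 125.8 and 55.1 CPM with 3, 8, 3 and 4 of 10 genes at 0, and mast cell markers, led by Cpa3, at 172.2, 97.4, 135.0 and 374.5 CPM. Neutrophil markers, led by Mmp8, were at 368.5, 251.0, 1581 and 741.4 CPM. Nearly all of this sum was Mmp8, at 342.7, 231.5, 1527 and 642.8 CPM, with 4, 5, 3 and 3 of the 8 genes at 0. Of the 3 neutrophil genes tested, 1 had a negative and 2 a positive log2 fold change. Vessel markers, led by Acta2, were at 108.5, 119.8, 33.45 and 112.8 CPM, and B cell markers, led by Cd79a, at 0.792 to 14.7 CPM. The part of these cells in the counts of the complex was not tested. Mettl3 itself had 195, 49, 121 and 158 fragments in control 1, control 2, Cre 1 and Cre 2, which check no deletion, since the deleted exons are not given in the sources used here. Y-linked transcripts, at 76, 1, 0 and 118 fragments, split each genotype.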

How the data were processed

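RNA of cells from imiquimod-treated mouse skin was measured in 4 libraries, 2 a genotype. The deposited values are raw counts of fragments per exon entry. Per the file headers, the authors ran featureCounts 2.0.1 without strand on GENCODE M23 (GRCm38), and left out chimeric pairs and pairs with an unmapped end. The submitters' processing notes name Trim Galore 0.6.7 and STAR 2.7.9a. Removal of duplicates is not stated, and no molecular identifiers are described. Of 841606 entries, 64.8% share coordinates with another entry and held 0 fragments, so a gene's count depends on which stretches could be counted and can move with transcript use.

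From these counts, entries were summed per gene (181 of 55335 genes had no symbol) and tested with edgeR 4.0.16 in R 4.3.3 (filterByExpr at a minimum count of 10, TMM, quasi-likelihood test, two-sided, Benjamini-Hochberg at 0.05 over 12434 genes), which was tested on simulated data. Libraries are numbered in accession order, and the numbers pair nothing. No label says that libraries are separate mice, and a p-value here reflects only how these libraries vary, which may be technical. Every pair differed beyond sampling noise (45.6 to 182.2 as chi-square over degrees of freedom). Transcript types and coding bases came from GENCODE M21, which has 99.7% of the entries. Intervals are exact binomial intervals at 95%, that of a ratio taken from the share of the first gene. Limma 3.58.1, DESeq2 1.42.0 and the other settings were alternatives.

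The members and lists were chosen with earlier results of these data known. Named are the 10 members, up to 12 signalling and up to 12 gamma delta genes at a mean of at least 5 CPM, the 10 genes nearest to the CD3 chains with a pseudocount of 1 CPM, the highest marker of each other cell type, Mettl3 and Ptprc, and the leading 2 segments of each variable locus.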

Additional observations from a re-analysis of the deposited data

How the results depend on the processing

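No gene of the complex was called under any of the 10 alternatives, while the count over all genes, 0 by edgeR with all libraries, was 25 by DESeq2, 27 without a low-count filter, and between 0 and 4 with 1 library left out, where the lone library of a genotype is assumed to vary like the others. Trac, Trbc1, Trbc2, Cd3d and Cd3g kept a negative log2 fold change under all 10. With 1 library left out, this sign largely follows from both Cre libraries lying below both controls for these genes. The sign of Cd4 turned in 4 (10.77 without control 1, 0.32 without Cre 2, 1.10 with the Y-linked covariate, 1.33 by limma-voom), that of Cd3e in 3 (5.73 without control 1, 1.42 with the covariate, 1.29 by limma-voom) and that of Cd247 in 1 (7.43 without control 1). With 1 library left out, Cd4 ran from -5.31, Cd247 from -9.54 and Cd3e from -2.05 up to these values without control 1. The cause was not tested, beyond the 0 or 1 fragment of these genes in control 2. The median of the signalling genes turned to 2.82 without control 1 and 0.014 with the covariate (-1.75 to 2.82 with 1 library left out), and that of the gamma delta genes to -0.11 without control 2 and -0.52 without Cre 2 (-0.52 to 6.05). The median of all genes, 0.20, was 0.44 by limma-voom, 0.48 with the covariate, 1.72 without control 1, 0.05 without control 2 and 0.10 without Cre 2. The number of genes with both Cre libraries below both controls lay between 5 and 8 of 8 with 1 library left out. Of all genes tested, 20.5% to 31.5% lay so in these settings. Leaving out a library cannot lower the count from the 5 with all libraries, so it is no check of it. This alternative was chosen after seeing the data, as were the list medians. Per kilobase, or from the entry with most fragments, ratios between genes changed in size: Trbc1 to Trbc2 in Cre 2 went from 0.835 to 2.32 and 1.83, and stayed the highest of the 4 libraries. Of the 10 genes nearest in pattern, 8 were the same with a pseudocount of 0.5 CPM and 7 with 5. No paired analysis was possible because the labels number no replicates. Depth limits the low genes: 3 fragments are 0.655 to 0.792 CPM.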
